A study of Mus musculus with 10 samples.

Results

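Biliary and ductular reaction genes were followed in whole livers of male mice after loss of the histone variant H3.3 in hepatocytes. The group holds the 9 genes Sox9, Krt7, Krt19, Krt23, Epcam, Spp1, Cftr, Cd24a and Prom1, which were taken by symbol from the 55421 genes of the count table. All 9 had an entry and all passed the minimum of 10 counts summed over the 10 libraries, as did 22449 genes in all. H3.3 KO livers (4) came from H3f3a fl/fl H3f3b fl/fl C57BL/6 animals given AAV8 Tbg-Cre, a virus in which the Tbg promoter drives Cre recombinase in hepatocytes, so cholangiocytes and other liver cells were not its target. WT Cre controls (3) were wild type and received AAV8 Tbg-Cre. MCS controls (3) carried the same floxed alleles as the KO and received AAV8 Tbg-MCS, which brings no Cre. Every animal was injected retro-orbitally with its virus at 6 months of age, and its liver was taken 3 weeks later. For the floxed animals the titles name H3f3a and H3f3b and the genotype field HIRA fl/fl, and the titles were followed.

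Cholangiocytes are the epithelial cells that line the bile ducts and adjust the salt and water content of bile. In the injured liver, duct-like cells can spread from the portal tracts, a response called the ductular reaction, and hepatocytes can themselves switch on part of the biliary programme. Sox9 is a transcription factor of this programme, Krt7, Krt19 and Krt23 are keratins of its intermediate filaments, Epcam, Cd24a and Prom1 are surface proteins of duct and progenitor cells, Spp1 (osteopontin) is secreted, and Cftr is the chloride channel of the duct cell surface.

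Total counts were 20862860 to 26096141 in the controls, 14998426 in KO 1 and 21485241 to 23619487 in KO 2 to 4. The targeted genes fell in every KO liver, H3f3a with a log2 fold change (log2FC, KO over controls here and where nothing else is said) of -1.83 and H3f3b with one of -1.66 (edgeR adjusted p = 3.5e-08 and 3.62e-06), while Hira did not pass (-0.14, edgeR adjusted p = 0.477). The levels below are CPM, the usual depth-normalised unit, with library sizes scaled by TMM (trimmed mean of M values). A gene is said to have risen or fallen only at an adjusted p under 0.05 (edgeR quasi-likelihood F test, Benjamini-Hochberg adjustment over all 22449 genes). The control columns were matched to the kinds of control by number, on which values against all 6 controls do not depend.

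Of the 9 genes, 4 rose in H3.3 KO against all 6 controls, namely Krt23, Sox9, Cd24a and Prom1, and 0 fell (0 also at an unadjusted p under 0.05, with DESeq2 and with limma-voom). Over all genes tested the shares were 19.7% higher and 16.6% lower (54.3% of all calls were higher, and 72.2% with scaling by library size only). With a log2FC beyond 1 as well, 3 of the 9 were higher (Krt23, Sox9 and Cd24a) and 0 lower, against 12.9% and 5.79% of all genes. In the same 3 genes every KO liver lay above every control, which was so for 12.5% of all genes, and in 0 of the 9 every KO liver lay below every control (12% of all genes). The median log2FC of the 9 genes was 0.82, and that of all genes was -0.003. Because whole liver was sequenced, a gain or loss of cells of one type and a change of RNA per cell cannot be told apart for any of these genes.

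**Figure D1:**
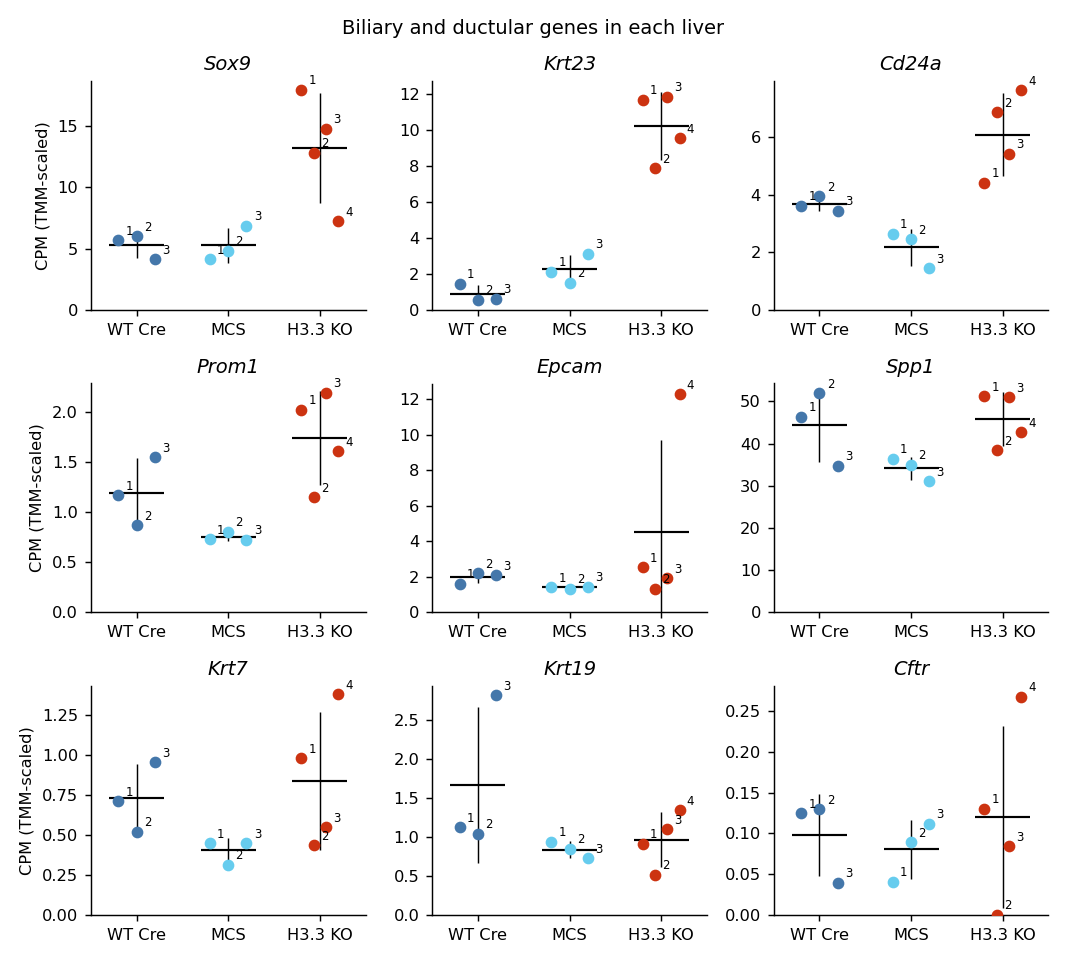
CPM (TMM-scaled, linear axis from 0) of the 9 genes in each liver, with points numbered by replicate, horizontal bars at the group mean and vertical bars of 1 SD (cut off at 0 for Epcam). Krt23, Sox9 and Cd24a were higher in all 4 H3.3 KO livers than in all 6 controls, Epcam was high in KO 4 alone (12.3 CPM), and Krt19 was highest in WT Cre control 3 (2.82 CPM).

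Krt23 and Epcam are shown by the sequence before their start sites, because Krt23 had the largest log2FC of the 9 and Epcam was high in 1 KO liver only. The sequences are from RefSeq (GRCm38.p6, the assembly of mm10), each the 250 bases before the annotated start, written 5′ to 3′ on the strand of the gene. Of the 9 genes 6 had such an entry, and Sox9, Krt19 and Cd24a had none. Capitals mark matches to a SOX core motif (ACAAT) and to an AT-rich, TATA-like motif (ATAAAA), which were searched on both strands together with a TEAD motif (GGAATG) and an RBPJ motif (GTGGGAA). None of these motifs overlaps another in the windows shown.
Krt23 (chr11:99493121-99493370, minus strand): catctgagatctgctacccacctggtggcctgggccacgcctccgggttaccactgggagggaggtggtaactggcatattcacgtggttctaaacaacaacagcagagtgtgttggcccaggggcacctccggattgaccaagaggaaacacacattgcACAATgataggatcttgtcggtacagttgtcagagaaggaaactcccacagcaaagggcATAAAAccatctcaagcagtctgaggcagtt
Epcam (chr17:87635729-87635978, plus strand): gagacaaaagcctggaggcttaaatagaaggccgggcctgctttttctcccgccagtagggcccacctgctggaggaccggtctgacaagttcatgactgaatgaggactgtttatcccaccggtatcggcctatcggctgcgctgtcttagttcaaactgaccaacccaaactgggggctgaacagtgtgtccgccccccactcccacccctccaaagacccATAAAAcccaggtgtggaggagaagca
In Krt23, ACAAT began 90 bases before the RefSeq start and ATAAAA 31 bases before it. That start lies inside the gene as GENCODE M21 gives it (99477974-99493137), so the end of the Krt23 window overlaps the gene. Distances from the GENCODE start are shorter. The Epcam window held ATAAAA 27 bases before the start and none of the other 3 motifs. Among 32851 promoter windows of the same length, 27.7% held ACAAT, 17.0% ATAAAA, 12.6% GGAATG and 5.42% GTGGGAA, and a match is given here as a description of the letters only.

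Krt23, a type I keratin gene on chromosome 11 (ENSMUSG00000006777.7, chr11:99477974-99493137, minus strand, mm10), had the largest log2FC of the 9. Its level was 1.46, 0.564 and 0.635 CPM in WT Cre controls 1 to 3 and 2.12, 1.52 and 3.13 CPM in MCS controls 1 to 3. KO 1 to 4 stood at 11.7, 7.87, 11.8 and 9.52 CPM, on 179 to 281 counts, where the controls had 13 to 56. The lowest KO liver was thus above the highest control, and the KO livers differed little among themselves (mean of 10.2 ± 1.89 CPM, SD, n = 4, against 1.57 ± 0.963 CPM, SD, n = 6). The log2FC came to 2.72 (SE 0.380, 95% interval 1.88 to 3.55, edgeR adjusted p = 0.000285), a ratio of group means of 6.51.

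Sox9 (ENSMUSG00000000567.5, chr11:112782224-112787760, plus strand) was measured at 102 to 139 counts in the controls and 189 to 351 in KO. In CPM it stood at 5.71, 6.03 and 4.13 in the WT Cre controls and at 4.15, 4.82 and 6.87 in the MCS controls. It reached 18.0, 12.9, 14.8 and 7.23 CPM in KO 1 to 4. KO 4 was close to the highest control, MCS control 3, and the other KO livers were well above it. The group means were 5.29 ± 1.10 CPM (SD, n = 6) and 13.2 ± 4.52 CPM (SD, n = 4), a log2FC of 1.32 (SE 0.224, edgeR adjusted p = 0.000645). Either kind of control gave a like value, 1.32 against the WT Cre controls (95% interval 0.685 to 1.95, edgeR adjusted p = 0.00600) and 1.32 against the MCS controls (95% interval 0.689 to 1.96, edgeR adjusted p = 0.00508).

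Cd24a, which encodes a small glycoprotein of the cell surface (ENSMUSG00000047139.9, chr10:43578284-43584265, plus strand), averaged 2.93 ± 0.925 CPM (SD, n = 6) in the controls and rose to 6.10 ± 1.44 CPM (SD, n = 4) in KO. The WT Cre controls had 3.63, 3.95 and 3.45 CPM, the MCS controls 2.65, 2.46 and 1.45 CPM, and KO 1 to 4 had 4.43, 6.88, 5.44 and 7.65 CPM. KO 1 was the lowest of the KO livers and lay next above WT Cre control 2. The log2FC came to 1.05 (SE 0.243, 95% interval 0.531 to 1.58, edgeR adjusted p = 0.00445). Intronless relatives of Cd24a exist in the mouse genome, and how reads matching more than 1 place were counted is not known, so its counts are uncertain. B cells and neutrophils also make Cd24a, and in the same livers the summed B cell markers stood at 1.34 to 9.46 CPM in the controls and 8.54 to 16.4 CPM in KO and the neutrophil markers at 3.62 to 14.4 CPM and 6.32 to 29.3 CPM, whose part in the Cd24a value was not tested.

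Prom1, the gene of the membrane protein prominin-1 (ENSMUSG00000029086.15, chr5:43993620-44102032, minus strand), was counted 13 to 39 times in the controls and 29 to 52 times in KO. It stood at 1.17, 0.868 and 1.55 CPM in the WT Cre controls, at 0.733, 0.804 and 0.727 CPM in the MCS controls and at 2.02, 1.15, 2.19 and 1.61 CPM in KO 1 to 4. Of the KO livers 3 lay above all controls, and KO 2 lay below 2 of the WT Cre controls. Prom1 rose with a log2FC of 0.82 (SE 0.269, 95% interval 0.236 to 1.40, edgeR adjusted p = 0.0302), and lost the call in 8 of 19 alternative settings (adjusted p of 0.00956 to 0.174), among them leaving out WT Cre control 2 (0.0577), any MCS control (0.0517 to 0.0627), KO 1 (0.0553) or KO 3 (0.107). Exons of Gm16401 on the other strand overlap 424 bases of those of Prom1, which makes its counts uncertain.

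Epcam, an adhesion molecule of epithelial cells (ENSMUSG00000045394.9, chr17:87635979-87651129, plus strand), was high in 1 KO liver. The controls held 26 to 53 counts and KO 1 to 4 held 39, 34, 46 and 321. In CPM the WT Cre controls stood at 1.63, 2.21 and 2.10, the MCS controls at 1.43, 1.34 and 1.45, and KO 1 to 4 at 2.54, 1.34, 1.94 and 12.3. KO 2 and KO 3 were within the control range, KO 1 slightly above it and KO 4 at 7.25 times the control mean. The log2FC did not pass (1.43, SE 0.560, 95% interval 0.183 to 2.67, edgeR adjusted p = 0.0709). Without KO 4 it was 0.17 (adjusted p of 0.653), so the size of the difference rests on that liver. It passed when KO 2 (1.75, adjusted p = 0.0259) or KO 3 (1.70, adjusted p = 0.0459) was left out, in a range of 0.0185 to 0.695 over all alternatives.

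Spp1 (ENSMUSG00000029304.14, chr5:104435118-104441050, plus strand) was the most abundant of the 9, with 557 to 1198 counts in the controls and 787 to 1209 in KO. Its levels were 46.4, 52.0 and 34.8 CPM in the WT Cre controls, 36.4, 35.0 and 31.1 CPM in the MCS controls and 51.3, 38.4, 51.0 and 42.8 CPM in KO 1 to 4. All KO livers lay above all MCS controls and within the range of the WT Cre controls. Against all controls the log2FC came to 0.22 (SE 0.146, edgeR adjusted p = 0.263), and its 95% interval, -0.093 to 0.536, leaves out a rise of 1 on the log2 scale. Gm42793 on the same strand shares 309 bases of exon with Spp1, so its counts are uncertain. Macrophages also make Spp1, and their summed markers stood at 524 to 764 CPM in the controls and 922 to 1571 CPM in KO, whose part in the Spp1 value was not tested. Spp1 took 67.6% to 77.2% of the summed CPM of the 9 genes in the controls and 50.9% to 57.3% in KO.

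Krt19, the keratin most often used to mark bile ducts (ENSMUSG00000020911.14, chr11:100140810-100148665, minus strand), was low throughout, at 13 to 71 counts in the controls and 13 to 35 in KO. It stood at 1.13, 1.04 and 2.82 CPM in the WT Cre controls, at 0.936, 0.848 and 0.727 CPM in the MCS controls and at 0.912, 0.514, 1.10 and 1.34 CPM in KO 1 to 4. No KO liver lay above all controls, and WT Cre control 3 had the highest value of all livers. The log2FC did not pass (-0.38, SE 0.396, 95% interval -1.23 to 0.473, edgeR adjusted p = 0.495) and was 0.051 when WT Cre control 3 was left out (adjusted p = 0.914, against 0.289 to 0.914 over all alternatives). The same library held 684 counts of Dmbt1, a mucin-like gene of duct and gut epithelium, of which the other 5 controls held 0 and the KO livers at most 3, and it had the highest Tff2 (0.595 CPM against at most 0.0652 CPM elsewhere) and Muc6 (0.992 CPM against at most 0.506 CPM elsewhere). Their part in the Krt19 value was not tested, and these 3 genes were chosen after their values were seen.

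Krt7, the partner keratin of Krt19 in duct cells (ENSMUSG00000023039.17, chr15:101411043-101430313, plus strand), was counted 7 to 24 times in the controls and 11 to 36 times in KO. The WT Cre controls had 0.709, 0.521 and 0.953 CPM, the MCS controls 0.448, 0.313 and 0.447 CPM, and KO 1 to 4 had 0.977, 0.435, 0.548 and 1.38 CPM. KO 2 and KO 3 lay among the controls, and KO 1 and KO 4 lay above them. The log2FC of 0.54 did not pass (SE 0.377, 95% interval -0.273 to 1.35, edgeR adjusted p = 0.293). Exons of Gm671 on the other strand cover 77 bases of Krt7, so its counts are uncertain.

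Cftr (ENSMUSG00000041301.15, chr6:18170687-18322768, plus strand) was near the limit of detection. Its counts were 3, 3 and 1 in the WT Cre controls, 1, 2 and 2 in the MCS controls and 2, 0, 2 and 7 in KO 1 to 4. The 11 counts of the KO livers against 12 of the controls gave a ratio of 1.39 per unit of scaled library size (95% exact binomial interval 0.555 to 3.44, counting error only). A difference was not detectable at this depth (edgeR adjusted p = 0.663), and the exons of Gm15592 on the other strand overlap those of Cftr.

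The kinds of control were then taken apart, since the KO has its virus in common with the WT Cre controls and its floxed alleles with the MCS controls. Against the WT Cre controls 3 of the 9 genes rose (15.3% of all genes) and 0 fell (13.1%), and against the MCS controls 5 rose (17.3%) and 0 fell (14.8%). Both comparisons use the same 4 KO livers. Krt23 had a log2FC of 3.52 against the WT Cre (SE 0.347, edgeR adjusted p = 3.78e-05) and 2.19 against the MCS controls (SE 0.315, edgeR adjusted p = 0.000359). Cd24a rose by 0.74 against the WT Cre (SE 0.233, edgeR adjusted p = 0.0324) and by 1.47 against the MCS controls (SE 0.245, edgeR adjusted p = 0.00085). Prom1 passed against the MCS controls (1.19, SE 0.301, edgeR adjusted p = 0.00984) and not against the WT Cre controls (0.53, SE 0.282, edgeR adjusted p = 0.184). Spp1 passed against the MCS controls with a small change (0.42, SE 0.149, edgeR adjusted p = 0.0470), and stood at 0.046 against the WT Cre controls (95% interval -0.274 to 0.366, edgeR adjusted p = 0.852). Krt7 did not pass against the WT Cre (0.19, 95% interval -0.683 to 1.05, edgeR adjusted p = 0.769) or the MCS controls (1.04, edgeR adjusted p = 0.0905, 0.0442 without KO 2 and 0.0411 with scaling by library size only). Epcam stood at 1.21 against the WT Cre (edgeR adjusted p = 0.243) and 1.70 against the MCS controls (edgeR adjusted p = 0.114, 0.0482 without KO 2 and 0.0216 with DESeq2). Krt19 stood at -0.78 against the WT Cre (edgeR adjusted p = 0.155) and 0.20 against the MCS controls (edgeR adjusted p = 0.757), and neither passed. The Spp1 call against the MCS controls was lost in 7 of 19 settings (adjusted p of 0.00511 to 0.139), with limma-voom (0.0585) and on leaving out WT Cre control 1 (0.0641), any MCS control (0.081 to 0.139), KO 1 (0.0678) or KO 3 (0.102). The Cd24a call against the WT Cre controls was lost in 7 as well (0.00614 to 0.107), among them on log2(FPKM + 0.1) (0.0587) and on leaving out any WT Cre control (0.0729 to 0.107), KO 2 (0.0817) or KO 4 (0.0739).

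**Figure D2:**
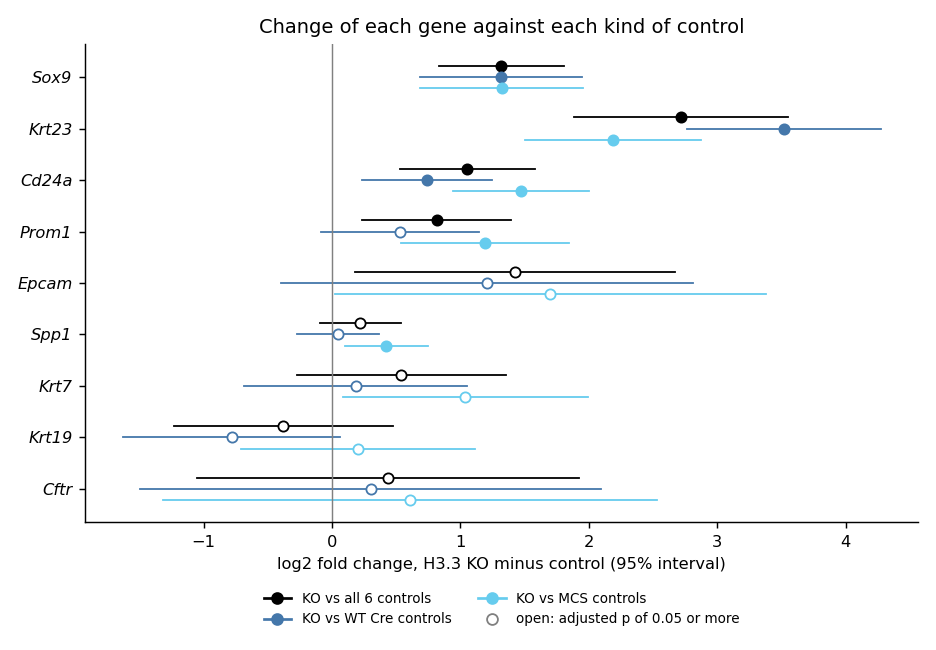
Log2 fold change of each gene with its 95% interval in H3.3 KO against all 6 controls (black), the WT Cre controls (dark blue) and the MCS controls (light blue), where filled points passed an adjusted p of 0.05 and open points did not. Krt23, Sox9 and Cd24a were filled in all 3 comparisons, Prom1 against all controls and the MCS controls, and Spp1 against the MCS controls only. The Cftr points rest on 0 to 7 counts a library.

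Whether these effects differed by the kind of control is what the contrast of the WT Cre with the MCS controls tests. None of the 9 genes passed it in edgeR (0.441% of all genes were higher and 0.486% lower), while 4 had an unadjusted p under 0.05 and DESeq2 called 1 of them, Krt23. The Krt23 difference, WT Cre over MCS, was -1.33 on the log2 scale (95% interval -2.13 to -0.531, edgeR adjusted p = 0.137), and the groups did not overlap (0.564 to 1.46 against 1.52 to 3.13 CPM). The other 3 were Cd24a (0.74, edgeR adjusted p = 0.285), Spp1 (0.38, 0.409) and Krt19 (0.98, 0.436), all with higher values in the WT Cre controls. The kinds of control also did not overlap for Cd24a, Krt19, Krt7, Epcam and Prom1, each higher in the WT Cre controls. The shares of all genes without such overlap, or with an unadjusted p under 0.05, were not counted. Neither count can therefore be read as particular to these genes. The WT Cre controls averaged 5.29 ± 1.02 CPM for Sox9 and the MCS controls 5.28 ± 1.42 CPM (SD, n = 3 each), and the 95% interval of the log2 difference ran from -0.664 to 0.680.

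Per kilobase of annotated exon, the control livers gave the order Spp1 (23.9 ± 4.89 CPM per kb, SD, n = 6), Sox9 (1.28 ± 0.267), Cd24a (1.14 ± 0.359), Krt23 (1.00 ± 0.615), Epcam (0.771 ± 0.170), Krt19 (0.673 ± 0.421), Prom1 (0.136 ± 0.0452), Krt7 (0.0801 ± 0.0326) and Cftr (0.0115 ± 0.00524). The ranges over livers of neighbours from Sox9 to Krt19 overlapped, as did those of Prom1 and Krt7, whereas Spp1 lay apart at the top and Cftr at the bottom. In KO Krt23 took the second place at 6.53 CPM per kb (5.03 to 7.57), above Sox9 at 3.20 (1.75 to 4.35), and the order of the others from Epcam down was as in the controls.

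The KO livers did not carry one common pattern of these genes. KO 4 had the highest Epcam, Krt7, Krt19, Cftr and Cd24a and the lowest Sox9 of the KO livers, and KO 2 was lowest for Krt23, Prom1, Krt19, Epcam, Krt7 and Spp1. Genes of neighbouring epithelial functions were also highest in KO 4. Krt8 stood at 2.03, 2.02, 2.79 and 9.33 times the control mean in KO 1 to 4, and Krt18, its partner in hepatocytes, at 1.17, 1.64, 2.07 and 5.44 times. The receptor gene Tnfrsf12a was lowest in KO 1 and stood at 3.14, 4.71 and 26.1 times the control mean in KO 2 to 4. Of 27 genes that rose among the epithelial, bile-modifying and niche genes described below, 20 had their highest level in KO 4. Krt23 (6.07 times in KO 4) and Sox9 (1.37 times) did not share this order. How many of all risen genes were highest in KO 4 was not counted, so the 20 may be no more than the general share. Over all genes KO 4 differed from the other KO livers with a chi-square per degree of freedom of 27.2 to 74.5. Among those other livers it was 8.39 to 42.8. The livers and genes of this comparison were chosen after their values were seen.

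**Figure D3:**
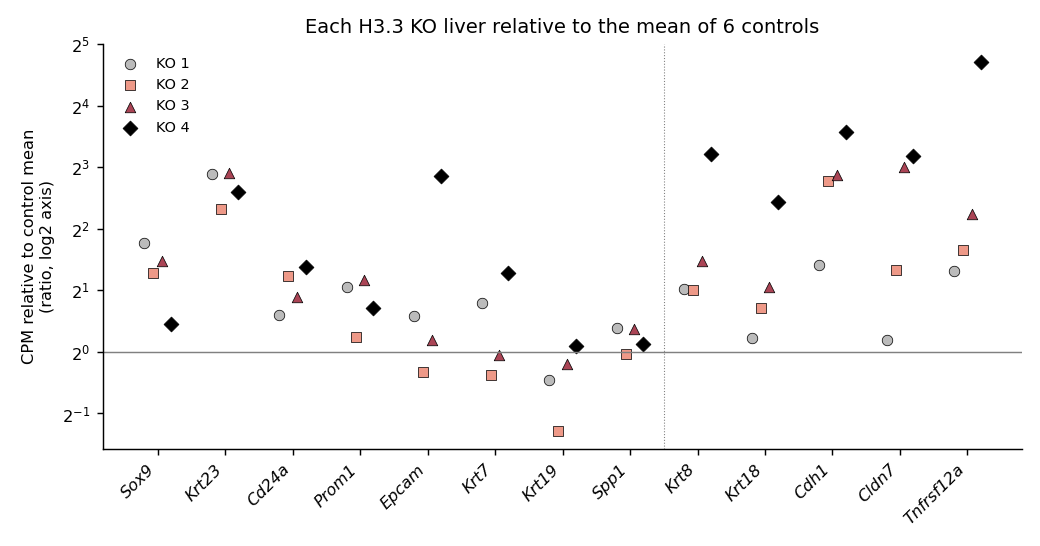
CPM of each H3.3 KO liver as a ratio to the mean of the 6 controls (log2 axis, line at 1) for 8 of the genes (Cftr is left out for its low counts) and, right of the dotted line, 5 other epithelial and niche genes. KO 4 (black diamonds) was highest for Epcam (7.25), Krt8 (9.33) and Tnfrsf12a (26.1), and lowest for Sox9 (1.37).

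The keratin family as a whole was looked at next, as 3 of the 9 genes belong to it. Of 54 listed keratin genes 28 had no count in any library and 11 were tested, of which 7 were higher and 1 lower in KO (19.7% and 16.6% of all genes tested). The direction of these 8 was the same when CPM was scaled by library size only. Krt8 rose from 150 ± 16.2 to 605 ± 530 CPM (log2FC 2.01, edgeR adjusted p = 0.00405) and Krt18 from 140 ± 19.6 to 362 ± 273 CPM (1.37, edgeR adjusted p = 0.0149), and both have processed pseudogenes that make their counts uncertain. Krt4, Krt79 and Krt80, keratins of stratified and glandular epithelia, rose from 0.152, 0.108 and 0.309 CPM to 0.712, 1.47 and 1.06 CPM. Krt20 was called as well, but had 89 counts in KO 1, 0 to 2 in the other KO livers and 0 to 1 in the controls. Krt20 (2 counts in all controls, 91 in KO) and Krt222 (3 and 9, not called) reached the minimum of 10 counts only with the KO livers. Their place among the 11 thus depended on KO counts. Krt10 was the one that fell, from 2.18 ± 0.402 to 0.676 ± 0.229 CPM (log2FC -1.71, edgeR adjusted p = 0.00024). The family was examined after values had been seen.

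Genes with the profile most like each of the better counted members were found by the root mean square difference of centred log2 CPM over the 10 libraries among 13209 genes. Sox9 was matched most closely by St6galnac2 (0.184), Txnl4a (0.233) and Slc17a8 (0.245), Cd24a by Mapk7 (0.157), Traf3ip2 (0.168) and H2-DMb2 (0.183), and Prom1 by Rarb (0.199), Fmo2 (0.208) and Pkia (0.226). Spp1 was matched by Zfp53 (0.131), Psmg4 (0.143) and Ift43 (0.144). Epcam came nearest to Cdc42ep5 (0.255), Twsg1 (0.348) and Srxn1 (0.367), and Krt19 to Mageh1 (0.369), Carns1 (0.371) and Mturn (0.392). Krt23 had no close match, with differences of 0.530 for 1110028F11Rik, 0.543 for Lag3 and 0.545 for Rassf4. None of these members was among the nearest 3 of another. Krt7 and Cftr were too low to enter this search, either as members or as possible matches.

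Other genes of the biliary programme were counted from 6 lists, of which 36 genes rose and 5 fell against all 6 controls. The counts of these lists are to be read beside the 19.7% of all genes tested that rose and the 16.6% that fell. In a list of 25 tested biliary epithelial genes 14 rose and 0 fell, with a median log2FC of 0.81. Cdh1, the E-cadherin of epithelial junctions, rose from 34.8 ± 5.63 to 250 ± 132 CPM (log2FC 2.84, edgeR adjusted p = 0.000108). The galectin Lgals3 (2.24, edgeR adjusted p = 4.62e-05), the annexin Anxa3 (1.25, edgeR adjusted p = 7.42e-05) and Ncam1, an adhesion molecule of reactive ductules (2.17, edgeR adjusted p = 0.000186), rose too. Ncam1 stood at 0.207 ± 0.0614 CPM in the controls and 0.955 ± 0.325 CPM in KO, on 2 to 7 and 12 to 36 counts. It did not pass on log2(FPKM + 1) (0.055, limma adjusted p = 0.573) or on log2(FPKM + 0.1) (0.37, limma adjusted p = 0.434). Dmbt1, whose counts were nearly all in WT Cre control 3, had a fitted value of -6.90 (edgeR adjusted p = 0.149).

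Of 14 genes by which cholangiocytes modify bile, 5 rose and 1 fell, with a median of 0.39 (0.34 with genes that had at most 3 counts in each library of a group at their bound). Slc10a2, the apical sodium-dependent bile acid transporter, stood at 31.4 to 119 CPM in the controls and at 276, 363, 321 and 802 CPM in KO 1 to 4 (log2FC 3.04, edgeR adjusted p = 0.000731). Vil1, which bundles actin in microvilli, rose from 0.303 ± 0.142 to 2.63 ± 1.06 CPM (3.08, edgeR adjusted p = 5.46e-05), Slc4a2, the chloride and bicarbonate exchanger, by 0.44 (edgeR adjusted p = 0.00784), and Ggt1 by 2.31 on 0 to 4 counts in the controls and 5 to 12 in KO (edgeR adjusted p = 0.00843). Pkhd1 and Sctr are outside the naming rule. Pkhd1, of the cholangiocyte cilium, fell from 5.94 ± 1.25 to 3.29 ± 1.34 CPM (edgeR adjusted p = 0.0244), and the secretin receptor gene Sctr had 0 to 4 counts in every library.

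Among 11 transcription factors of the biliary lineage 3 rose and 1 fell (median of 0.29), near the 19.7% of all genes that rose. The epithelial factor Elf3 rose from 0.632 ± 0.159 to 2.94 ± 1.01 CPM (log2FC 2.21, edgeR adjusted p = 5.38e-05) and the injury-response factor Klf6 by 1.88 (edgeR adjusted p = 0.000313). Hhex, needed for bile duct formation, fell from 96.5 ± 30.6 to 53.9 ± 10.2 CPM (-0.84, edgeR adjusted p = 0.0130). Sox4, which acts with Sox9 in duct development, rose by 0.83 (edgeR adjusted p = 0.0243, 0.0507 without MCS control 2 and 0.0598 without KO 3), but the kinds of control differed for it. Livers of the WT Cre group had 3.08 to 3.46 CPM, of the MCS group 1.26 to 1.73 CPM and of the KO 3.95 to 4.43 CPM (WT Cre against MCS, edgeR adjusted p = 0.0224).

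The Notch pathway, which instructs biliary fate, had 4 of 15 genes higher and 0 lower (median of 0.15), also near that share. Against the WT Cre controls 4 rose and 2 fell (15.3% and 13.1% of all genes). Against the MCS controls 5 rose and 0 fell (17.3% and 14.8% of all genes). The target genes Heyl (log2FC 1.47, edgeR adjusted p = 0.00106) and Hey1 (1.48, edgeR adjusted p = 0.00685), the glycosyltransferase gene Lfng (0.98, edgeR adjusted p = 0.00231) and the receptor gene Notch3 (1.03, edgeR adjusted p = 0.0137, and 0.0662 without KO 4) rose. Heyl was led by KO 4, at 9.52 CPM against 4.04 to 4.38 CPM in the other KO livers. The target genes Hes1 (-0.32, edgeR adjusted p = 0.483) and Nrarp (-0.08, edgeR adjusted p = 0.899), which are outside the naming rule, did not pass. Notch1 did not pass (0.15, edgeR adjusted p = 0.696), with 17.7 to 25.1 CPM in WT Cre, 9.51 to 11.9 CPM in MCS and 14.8 to 19.8 CPM in KO livers (WT Cre against MCS, edgeR adjusted p = 0.0130).

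Of 18 genes of the Hippo and YAP pathway, a growth-control pathway whose effector YAP is active in duct cells, 2 rose and 2 fell (median of -0.10). Against the WT Cre controls 1 rose and 5 fell (15.3% and 13.1% of all genes). Against the MCS controls 2 rose and 2 fell (17.3% and 14.8% of all genes). Axl, a receptor gene and YAP target, rose from 18.9 ± 3.35 to 62.4 ± 20.1 CPM (log2FC 1.72, edgeR adjusted p = 7.15e-05), and Tead2 rose by 0.70 (edgeR adjusted p = 0.0450). The Tead2 call was lost on leaving out WT Cre control 2, any MCS control or any KO liver (adjusted p = 0.0611 to 0.1), and its sign turned on the FPKM scale (-0.055 on log2(FPKM + 1)). Tead3 (-0.45, edgeR adjusted p = 0.00366) and Nf2 (-0.29, edgeR adjusted p = 0.00853) fell, and neither passed with scaling by library size only (-0.28 and -0.11). The classical target genes Ccn1 (-0.87, edgeR adjusted p = 0.0553), Ankrd1 (-0.87, edgeR adjusted p = 0.111) and Ccn2 (0.27, edgeR adjusted p = 0.71), outside the naming rule, did not pass. Against the WT Cre controls Ccn1 (-1.29, edgeR adjusted p = 0.00189) and Ankrd1 (-1.36, edgeR adjusted p = 0.00763) fell, and Ccn2 did not pass (0.83, edgeR adjusted p = 0.291). None of them passed against the MCS controls (edgeR adjusted p = 0.465, 0.905 and 0.876).

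Of 20 tested genes for signals of the ductular niche 8 rose and 1 fell, with a median of 0.63 (0.41 with genes at the floor at their bound). Pdgfa, a growth factor for stellate cells, rose from 5.87 ± 1.07 to 20.2 ± 5.90 CPM (log2FC 1.78, edgeR adjusted p = 1.96e-05). Tgfb1 (1.27, edgeR adjusted p = 0.000152), its receptor gene Tgfbr2 (2.08, edgeR adjusted p = 0.000262) and the hepatocyte growth factor gene Hgf (1.29, edgeR adjusted p = 0.000867) rose as well. The Hgf receptor gene Met, outside the rule, was the one that fell (-0.51, edgeR adjusted p = 0.0185).

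**Figure D4:**
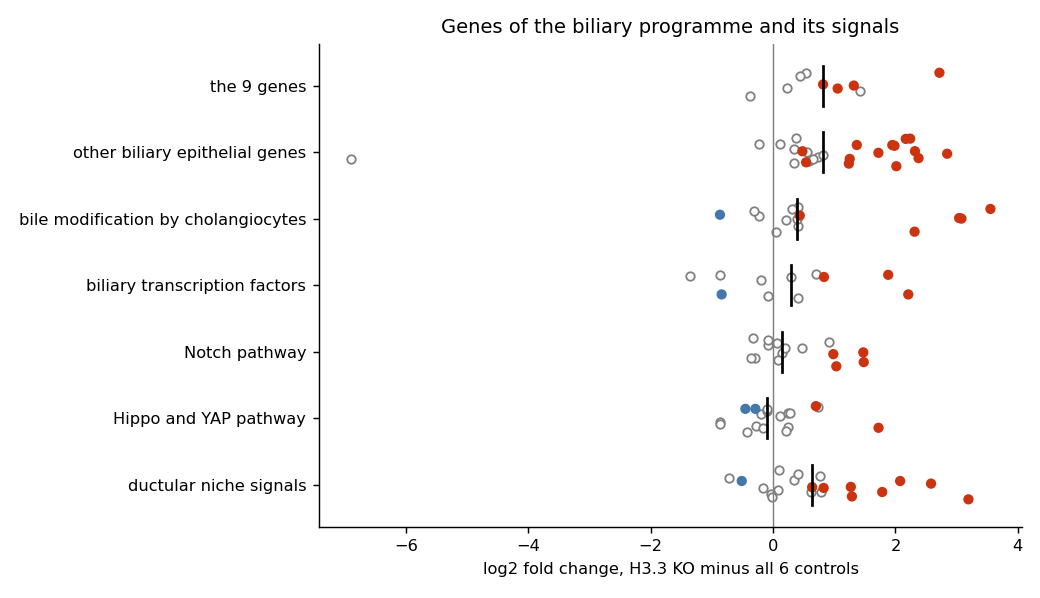
Log2 fold change, H3.3 KO minus all 6 controls, of each tested gene (1 point each) of the 9 and of the 6 lists, with red for genes that rose, blue for genes that fell, open points for genes that did not pass and black bars at the median of each list. Medians ran from -0.10 (Hippo and YAP pathway) to 0.82 (the 9 genes), and the point at -6.90 is Dmbt1.

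Markers of other cell types moved in the same livers, where 19.7% of all genes tested rose and 16.6% fell. Of 12 macrophage genes 11 rose, among them Clec4f (1.29, edgeR adjusted p = 0.00193) but not Ctsd (0.08, edgeR adjusted p = 0.603), which is expressed in most cells. Of 12 stellate cell genes 11 rose, at a summed 223 to 285 CPM in the controls and 511 to 824 CPM in KO, led in level by Dcn (0.68, edgeR adjusted p = 0.000665) and Col3a1 (2.71, edgeR adjusted p = 5.09e-06). Of 9 measured hepatocyte genes 6 fell, at 110600 to 162100 CPM and 82760 to 98960 CPM, among them Alb (-0.49, edgeR adjusted p = 0.0169, 0.0535 without KO 3 and 0.0586 without KO 4) and Ttr (-0.96, edgeR adjusted p = 0.000151). Against the WT Cre controls 3 of the 9 hepatocyte genes fell, and against the MCS controls 7 (13.1% and 14.8% of all genes). Of 6 proliferation genes 5 rose, at 30.4 to 38.4 CPM and 49.2 to 64.7 CPM, with Mki67 at 2.24 (edgeR adjusted p = 6.42e-05) and Pcna not passing (0.21, edgeR adjusted p = 0.0586, and 0.0259 without MCS control 3).

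Of 8 B cell genes 2 rose, near the share over all genes, namely Cd22 (1.49, edgeR adjusted p = 0.00676) and Cd79b (1.35, edgeR adjusted p = 0.0347). The Cd79b call was lost on leaving out WT Cre control 1, MCS control 1 or 2, or KO 2, 3 or 4 (adjusted p = 0.0566 to 0.105). Of 7 tested neutrophil genes 4 rose, among them Csf3r (1.58, edgeR adjusted p = 0.00519) and S100a9 (1.74, edgeR adjusted p = 0.0183, and 0.0609 without KO 2). Of 7 mesothelial genes 2 rose, again near that share, at 2.24 to 4.25 CPM and 4.43 to 6.35 CPM, and their most abundant genes Gpm6a (0.26, edgeR adjusted p = 0.326) and Upk3b (1.02, edgeR adjusted p = 0.0617, and 0.0167 without WT Cre control 3) did not pass. Of 7 red blood cell genes 0 passed in edgeR (0 also at an unadjusted p under 0.05, with DESeq2 and with limma-voom), with Alas2 at -1.02 (edgeR adjusted p = 0.202, and 0.00338 without KO 1) and Hbb-bs at -0.72 (edgeR adjusted p = 0.414). Of 7 tested genes of gut and gallbladder epithelium 1 rose and 1 fell, and the most abundant, Fabp2 (-0.82, edgeR adjusted p = 0.130, and 2.86e-05 without KO 1) and Lgals4 (-0.12, edgeR adjusted p = 0.643), did not pass. Against the WT Cre controls 1 of the 8 B cell genes and 3 of the 7 neutrophil genes rose (15.3% of all genes). Against the MCS controls 5 B cell genes and 1 neutrophil gene rose (17.3% of all genes).

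Of 10 exocrine pancreas genes 3 were at 0 in all libraries and 3 were tested, of which 1 rose. Cela2a, a pancreatic elastase gene, had 1 to 7 counts in the controls and 5, 2113, 1409 and 2742 in KO 1 to 4 (edgeR adjusted p = 0.00109, and 0.178 with limma-voom). Cela1, the other most abundant gene of that list, did not pass against all controls (1.13, edgeR adjusted p = 0.142), and was lower in the WT Cre than in the MCS controls (-2.05, edgeR adjusted p = 0.00448). The part of these other cells in the values of the 9 genes and of the 6 lists was not tested.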

How the data were processed

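Poly(A) RNA of 10 male mouse livers was sequenced. In the study's methods the authors used Trim Galore, STAR with mm10, and HOMER for the gene counts, whereas the submitters' processing notes name STAR, HTSeq and Cufflinks. The deposited counts are whole numbers without normalization, and the deposited FPKM values (fragments per kilobase of gene, scaled to depth, 268042 blank cells read as 0) were used only for alternatives. How strand and reads matching more than 1 place were treated is not given in the sources used here.

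Counts were tested in R 4.3.3 with edgeR 4.0.16 (quasi-likelihood F test), with TMM scaling, genes of at least 10 counts in all, two-sided, adjusted over 22449 genes. KO was compared with all 6 controls in a fit of 2 groups, and with each kind of control in a fit of 3. SE is the log2 fold change over the square root of F. The fits were tested on simulated data. Alternatives used DESeq2 1.42.0 and limma 3.58.1. Nothing in the labels beyond the replicate number states separate cultures or litters, so p-values measure the spread between these samples. Chi-square per degree of freedom between replicate libraries was 8.39 to 74.5, so none was a repeat of another. No batch is given.

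Control columns 1 to 3 were matched to WT Cre and 4 to 6 to MCS controls by library number. Coordinates and exon lengths are from GENCODE M21, which matched 54587 of 55421 identifiers. The 9 genes and all lists were chosen with earlier results of these data known. Named were the 9 genes, the 4 genes of lowest p in each of the 6 pathway lists and any that differed between the kinds of control, the most abundant 2 of each marker list, the 3 genes nearest in profile to each of the 9 with at least 20 counts a library on average, and H3f3a, H3f3b and Hira. A marker listed as Tf and one listed as Ahsp had no entry in the tables used here.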

Additional observations from a re-analysis of the deposited data

Results flagged for a closer look

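In a group of 4 or 6 livers a highest or lowest liver was marked when its gap to the nearest other liver was a large part of the whole range (Dixon's criterion, which chance meets in about 1 of 20 groups). Of 114 groups examined 11 (9.65%) were marked. Among the biliary genes these were Krt19 in WT Cre control 3 (2.82 CPM, with the next control at 1.13 CPM) and Epcam in KO 4 (12.3 CPM, with the next KO liver at 2.54 CPM). KO 4 also stood apart for Heyl (9.52 CPM against 4.38 CPM) and Slc10a2 (802 CPM against 363 CPM). MCS control 3 stood apart among the controls for Slc10a2 (119 CPM against 53.6 CPM), Axl (25.3 CPM against 19.6 CPM), the Kupffer cell gene Clec4f (107 CPM against 73.2 CPM) and the neutrophil gene S100a9 (4.08 CPM against 1.26 CPM). WT Cre control 1 stood apart for Tgfbr2 (30.3 CPM against 22.3 CPM). KO 1, the library of lowest depth, stood apart from the other KO livers for Fabp2 (157 CPM against 49.3 CPM) and Lgals4 (22.5 CPM against 13.8 CPM).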

How the results depend on the processing

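Across 19 alternative settings Sox9, Krt23 and Cd24a passed in each against all 6 controls. The number of the 9 genes that rose was 3 to 5 against all controls, 2 to 3 against the WT Cre and 4 to 7 against the MCS controls, and 0 fell in any. Of 84 results for single genes 47 kept direction and side of the threshold throughout and 13 changed sign at least once. With library size only the log2FC of all genes had a median of 0.17 and 72.2% of calls were higher, against 54.3% with TMM (69.7% on log2(FPKM + 1)). Among the 6 lists 5 genes fell with TMM, 1 with library size only, 1 on log2(FPKM + 1), 1 on log2(FPKM + 0.1) and 3 to 8 on leaving out 1 liver (3 without KO 2, 8 without KO 4). Between the kinds of control DESeq2 put 1 of the 9 genes, Krt23, lower in the WT Cre controls, against 0 with edgeR. Epcam passed against all controls with DESeq2 (adjusted p of 0.0185), filterByExpr (0.0474), and without KO 2 (0.0259) or KO 3 (0.0459). filterByExpr removed Cftr. The causes were not tested.

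Deviations of same-numbered samples had correlations of -0.122 to 0.203, with 3 of 9 over 0.1, and those of differently numbered samples -0.281 to 0.325. Between WT Cre and MCS controls the same-numbered pairs had 0.12, 0.12 and 0.094, and the others -0.133 to 0.018. Groups this small cannot tell whether the numbers pair the livers, and the main fits did not treat them as paired. With the replicate number as a block 4 of the 9 genes rose against all controls, 2 against WT Cre and 5 against MCS controls, 31 genes of the lists rose, 8 fell, and 1 of the 9 was lower in the WT Cre than in the MCS controls. No other liver shares the replicate number of KO 4, so the block in effect leaves KO 4 out of the KO comparisons. Epcam against all controls, for one, was 0.16 with the block and 0.17 without KO 4. Under this block Cd24a did not pass against the WT Cre controls (adjusted p of 0.0642), and the sign turned for Cftr (-0.42 against all, -0.56 against the WT Cre and -0.26 against the MCS controls), Krt7 (-0.21) and Epcam (-0.068) against the WT Cre controls, and Krt19 (-0.10) against the MCS controls.

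Other sign changes were of values that did not pass, Tead2 apart. Cftr turned with limma-voom (-0.084 against all, -0.17 against the WT Cre controls) and on log2(FPKM + 1) and log2(FPKM + 0.1) (-4.41e-05 and -0.000139 against all, -0.0097 and -0.078 against the MCS controls, -0.019 and -0.16 between the kinds of control). Tead2 turned on both FPKM scales (-0.055 and -0.070). Lgals4 turned to 0.048 with library size only and to 0.015 and 0.016 on the FPKM scales, and Hira to 0.036, 0.076 and 0.091. On leaving out 1 liver the values ran from -0.60 to 0.051 for Krt19 against all controls and from -0.012 to 0.44 against the MCS controls, and from -0.44 to 0.89 for Cftr against all, from -0.59 to 0.75 against the WT Cre, from -0.27 to 1.06 against the MCS controls and from -0.033 to 0.69 between the kinds of control. Against the WT Cre controls they ran from -0.22 to 0.44 for Krt7, from -0.058 to 1.52 for Epcam and from -0.099 to 0.17 for Spp1, and between the kinds of control from -0.14 to 0.24 for Sox9. KO 1 had the fewest counts, and genes of under about 30 counts a library, Cftr first among them, allow no firm statement on a small change.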
